A study of Cricetulus griseus with 10 samples.

Results

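Nppa and Nppb, the genes for 2 natriuretic peptides, and Npr1, Npr2 and Npr3, the genes for the 3 receptors of the peptide family, were followed across the adaptation of CHO-K1 cells to growth in suspension. They are 5 of the 25156 features of the deposited expression table, found by gene symbol for Npr2 and by Chinese hamster gene number for the other 4. Nppa and Nppb were chosen by their normalised read counts, which stood far above the passage 0 level later on, so their differences from passage 0 are given as a description with no test, and the receptors came in as the rest of the family. CHO-K1 is an established, wild type line of Chinese hamster ovary cells, and the cells were adapted in SFM4CHO, a serum-free medium. The groups were passages 0, 2, 4, 6 and 10 of the adaptation, written P0, P2, P4, P6 and P10, with 2 libraries each and 10 in all. The labels give no genotype, drug or added agent that sets 1 passage apart from another, and they do not state how the P0 cells were grown or whether the duplicates were separate cultures. The p-values therefore measure only the spread between these libraries, which may be technical.

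Natriuretic peptides are small ring-shaped hormones, best known from the heart, where stretched atrial and ventricular muscle cells release them. Nppa encodes the precursor of atrial natriuretic peptide and Nppb that of brain natriuretic peptide. Both peptides bind the receptor encoded by Npr1, an enzyme of the cell surface that makes the messenger cyclic GMP, while the receptor encoded by Npr2 does the same for C-type natriuretic peptide, the product of Nppc. The receptor encoded by Npr3 lacks the cyclase and takes the peptides up for breakdown.

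The libraries held 8394219 to 16599495 reads assigned to genes. Of all features, 13521 had a mean of at least 10 normalised reads and were tested. Duplicates lay close together at P0, P2 and P4, where log2 values correlated across genes at 0.988 to 0.992, and further apart at P6 (0.956) and P10 (0.930). The gene Dym took 1.15% of the normalised total in P6 replicate 2 and 1.41% in P10 replicate 1, against 4.32% and 10.7% in their duplicates. In the P0, P2 and P4 libraries it took 8.53% to 13.5%, so P6 replicate 1 was also below these. P6 replicate 2 and P10 replicate 1 had the lowest share of Dym, and the values of the 4 expressed members are also given without them. The correlation of duplicates does not show which library of a pair departs from the rest. Keratin genes of epithelial cells were near 0, with at most 4.95 normalised reads for Krt8, 1.12 for Krt18 and 1.69 for Krt19 in any library, whereas Epcam had 2.87 to 16.4 and the epithelial cadherin gene Cdh1 50.6 to 337. The 6 mesenchymal markers summed to 18689 to 25592, most of it Vim (12373 to 23048), while Thy1 was at 0 in all libraries and Col1a2 had at most 3.37. Of 6 ovarian granulosa markers, 4 had a row, and these summed to 74.3 to 137 normalised reads per library.

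Nppa was close to silent at P0 and had 1950.3 normalised reads or more in every library from P4 on. It had 8.71 and 1.44 normalised reads in P0, 131 and 123 in P2, 1950.3 and 1959 in P4, 6264 and 2837 in P6, and 2795 and 5958 in P10. The passages P0, P2, P4 and the pair P6 and P10 followed each other without overlap, and the libraries of P6 and P10 were intermixed. The P0 values rest on 10 reads and 1 read, and Nppa passed the filter on low values only through its later passages. Means were 5.07 ± 5.14 at P0, 127 ± 5.86 at P2, 1955 ± 6.33 at P4, 4551 ± 2424 at P6 and 4377 ± 2237 at P10 (SD, n = 2 each).

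Against P0, the level of Nppa pooled over both libraries was 21.3 times as high at P2, with an exact 95% counting interval of 11.7 to 43.3. It was 328 times as high at P4 (183 to 657), 814 times at P6 (455 to 1631) and 744 times at P10 (416 to 1491). These intervals cover counting error only and are wide because they rest on 11 reads at P0. In bulk RNA, a change in the number of cells that express a gene and a change in the RNA per cell cannot be told apart, and this holds for all results here.

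Nppb followed another course, with its highest values at P4. It had 126 and 122 normalised reads in P0, 1905 and 1770.2 in P2, 5745 and 5508 in P4, 4234 and 1658 in P6, and 1599 and 3811 in P10. Both P4 libraries were above all others, the P0 libraries were below all others, and the P2 libraries lay within the range of those of P6 and P10. The means over 2 libraries were 124 ± 2.93 at P0, 1837 ± 95.2 at P2, 5627 ± 167 at P4, 2946 ± 1822 at P6 and 2705 ± 1564 at P10 (SD). The P2 mean was 14.8 times, the P4 mean 45.3 times, the P6 mean 23.7 times and the P10 mean 21.8 times the P0 mean. The late values depend on the library: on the log2 scale the difference from P0 was 4.40 at P6, with 3.73 without P6 replicate 1 and 5.08 without P6 replicate 2, and 4.30 at P10, with 4.93 without P10 replicate 1 and 3.68 without P10 replicate 2.

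**Figure D1:**
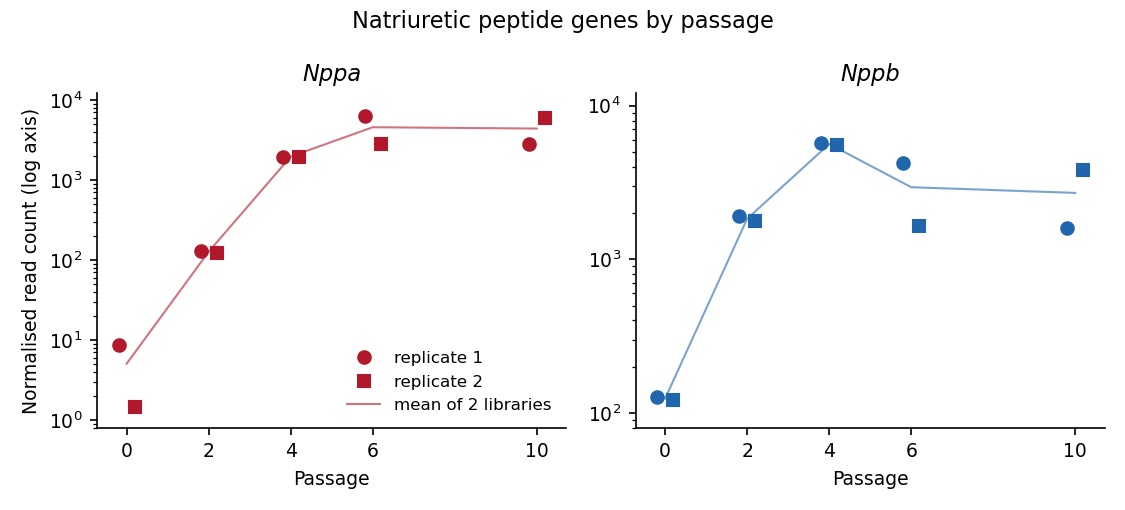
Normalised read counts of Nppa (left) and Nppb (right) by passage on log axes, with circles for replicate 1, squares for replicate 2 and a line through the means of the 2 libraries. Nppa is higher at each passage up to P6, while Nppb has its highest libraries, 5745 and 5508, at P4.

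Differences among P2, P4 and P6 set no P0 or P10 level against another, although the fit pools the spread of a gene over all passages. Nppa and Nppb were chosen with the values of every passage known, so the p-values of these differences describe them and give no independent support. With limma on log2 of the normalised value plus 1, adjusted over all 13521 features, Nppa was higher at P6 than at P2 by 5.04 on the log2 scale (SE 0.62, adjusted p = 0.0180). It was 1 of 51 features called in this comparison (0.377% of those tested), of which 0.214% rose and 0.163% fell. The call held in 4 of the 10 fits that left out 1 library and was lost without either library of P2, P4 or P6, with adjusted p up to 0.253.

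The step of Nppa at P4 against P2 was 3.93 (SE 0.62), from values that did not overlap, but limma gave an adjusted p of 0.301. In that comparison limma called 0 of 13521 features (0%), with 285 at an unadjusted p under 0.05, edgeR also called 0, and DESeq2 called 10. The pooled spread of Nppa includes the P0 duplicates and the wide P6 and P10 duplicates. In a fit of the P2 and P4 libraries alone limma gave an adjusted p of 4.35e-10 for the same difference. That fit takes its spread from the P2 and P4 duplicates only, and its p gives no independent support either. At P6 against P4 the difference was 1.11 (limma, adjusted p = 0.261). With a single P6 library it was 0.54 without replicate 1 and 1.68 without replicate 2.

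For Nppb, the difference at P4 against P2 was 1.61 (SE 0.46; limma, adjusted p = 0.9999). It was called by limma when only the P2 and P4 libraries were fitted (adjusted p = 1.24e-06), a p that again gives no independent support. At P6 against P4 the difference was -1.09 (limma, adjusted p = 0.191), a comparison in which limma and edgeR called 0 of 13521 features (0%; 3450 at an unadjusted p under 0.05 in limma) and DESeq2 called 463. Both P6 libraries were below both P4 libraries, and limma called the difference when either P10 library was left out (adjusted p of 0.0471 without replicate 1 and 0.0469 without replicate 2). At P6 against P2 it was 0.53 (limma, adjusted p = 0.465), with the P2 values inside the P6 range. Its direction depends on the P6 library, with -0.15 without P6 replicate 1 and 1.20 without P6 replicate 2. Between P10 and P6 the difference was -0.05 for Nppa and -0.10 for Nppb, both given without a test.

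The pair can also be compared within a library, where the scaling between libraries drops out. P0 had 0.0690 and 0.0118 Nppa reads per Nppb read, and P2 had 0.0689 and 0.0694. P4 had 0.339 and 0.356, P6 had 1.48 and 1.71, and P10 had 1.75 and 1.56. From P2 on, the ratio thus differed less between the 2 libraries of a passage than between P2, P4 and P6, whose libraries did not overlap. Read numbers also depend on transcript length, so these figures show the shift between the genes and not which transcript was the more abundant. The exact 95% counting intervals were 0.0570 to 0.0826 for P2 replicate 1 and 0.322 to 0.357 for P4 replicate 1. They were 1.43 to 1.53 for P6 replicate 1, 1.60 to 1.83 for P6 replicate 2, 1.65 to 1.85 for P10 replicate 1 and 1.51 to 1.62 for P10 replicate 2. The duplicates of P6 and those of P10 therefore differed in the ratio beyond counting error. At P0 they ran from 0.0324 to 0.131 in replicate 1 and from 0.000294 to 0.0673 in replicate 2, so a difference between P2 and P0 was not detectable at this depth.

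**Figure D2:**
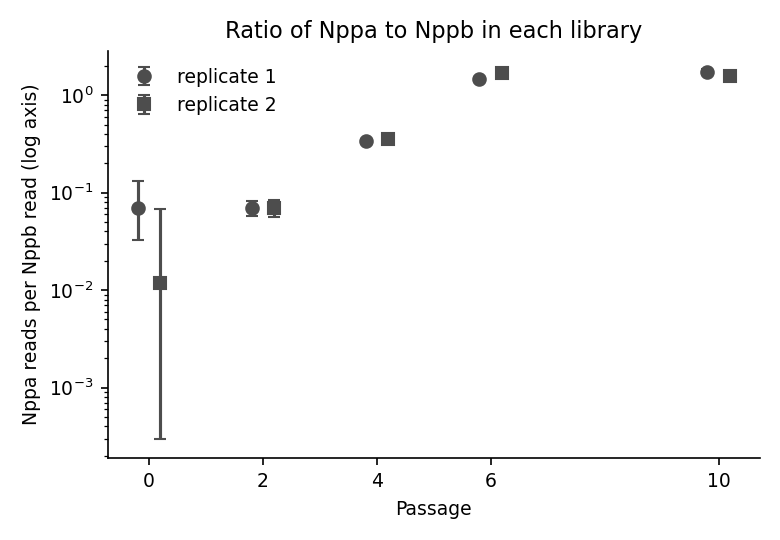
Nppa reads per Nppb read in each library by passage on a log axis, with circles for replicate 1, squares for replicate 2 and bars for the exact 95% counting interval. The ratio is near 0.069 in both P2 libraries and in P0 replicate 1, 0.339 and 0.356 at P4, and between 1.48 and 1.75 in the 4 libraries of P6 and P10.

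The late duplicates differed in the level of both peptides more than in their ratio. At P6 the higher library had 2.21 times the Nppa and 2.55 times the Nppb of the lower, but the ratio of Nppa to Nppb differed by a factor of 1.16. At P10 the factors were 2.13 for Nppa, 2.38 for Nppb and 1.12 for the ratio. The lower libraries were P6 replicate 2 and P10 replicate 1, the ones with little Dym, and the part of that difference in the peptide levels was not tested. Without these libraries the log2 difference of Nppa from P0 was 10.33 at P6 and 10.26 at P10, against 9.76 and 9.71 with them.

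Both tested receptor genes went the other way. Npr1, the receptor of both peptides, and Npr2, the receptor of C-type natriuretic peptide, fell at P10 against P0, and Npr3, the clearance receptor, was too low to test. Of the 13521 features, 8.25% fell and 8.77% rose in this comparison.

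Npr1 had 42.7 and 30.2 normalised reads in P0, 20.8 and 15.6 in P2, 7.92 and 16.3 in P4, 9.39 and 12.4 in P6, and 12.7 and 4.68 in P10. Both P0 libraries were above all 8 later ones, which overlapped from passage to passage apart from P2 replicate 1. Npr1 fell by 2.07 on the log2 scale at P10 against P0 (SE 0.53; limma, adjusted p = 0.0308). The call rests on 15 and 6 reads at P10, against 49 and 21 reads at P0, and held in 5 of 10 fits without 1 library, being lost without either library of P0 or P2 or without P10 replicate 2 (limma, adjusted p up to 0.198). It was also lost when P0 and P10 alone were fitted (limma, adjusted p = 0.155), and without P6 replicate 2 and P10 replicate 1 the difference was -2.70 (limma, adjusted p = 0.00137), with the lone P10 library assumed to vary like the other passages. The differences from P0 were -0.95 at P2, -1.57 at P4 and -1.65 at P6, with limma adjusted p of 0.397, 0.104 and 0.0570. Over all features, 2.07% fell and 2.08% rose at P2, 5.52% fell and 3.72% rose at P4, and 10.5% fell and 10.5% rose at P6.

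Npr2 had 252 and 167 normalised reads in P0, 110 and 142 in P2, 110 and 107 in P4, 86.9 and 145 in P6, and 64.1 and 72.6 in P10. The P0 libraries were again above all later ones, the P10 libraries were below all others, both P2 libraries lay just above both P4 libraries, and the P6 libraries spanned those of P2 and P4. Npr2 fell by 1.57 on the log2 scale at P10 against P0, to 68.4 ± 5.97 at P10, against 209 ± 60.1 at P0 (SD, n = 2 each; SE 0.31; limma, adjusted p = 0.0121). The call held in 9 of 10 fits without 1 library and was lost without P0 replicate 1 (limma, adjusted p = 0.118) and when P0 and P10 alone were fitted (limma, adjusted p = 0.106). Without P6 replicate 2 and P10 replicate 1 the difference was -1.48 (limma, adjusted p = 0.000941), under the same assumption. The differences from P0 were -0.71 at P2, -0.91 at P4 and -0.86 at P6, with limma adjusted p of 0.267, 0.107 and 0.0794.

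Between successive later passages neither receptor passed the test. Npr1 differed by -0.62 at P4 against P2, -0.08 at P6 against P4 and -0.42 at P10 against P6. Npr2 differed by -0.20, 0.05 and -0.71 in the same order. At P10 against P6, limma called 0 of 13521 features (0%), with 1273 at an unadjusted p under 0.05, edgeR called 0 and DESeq2 called 67.

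Npr3 had 5.23 and 15.8 normalised reads in P0, 5.21 and 7.82 in P2, 4.95 and 9.32 in P4, 5.48 and 13.5 in P6, and 3.38 and 2.34 in P10. Both P10 libraries were below all others, while the earlier passages overlapped. The P10 values are 4 and 3 reads, against 6 and 11 reads at P0, and the pooled level at P10 was 0.308 times that at P0, with an exact 95% counting interval of 0.108 to 0.781. The mean of all libraries was under 10, so Npr3 was not in the main test, and in a limma fit without the filter the difference of -1.42 did not pass (adjusted p = 0.227).

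**Figure D3:**
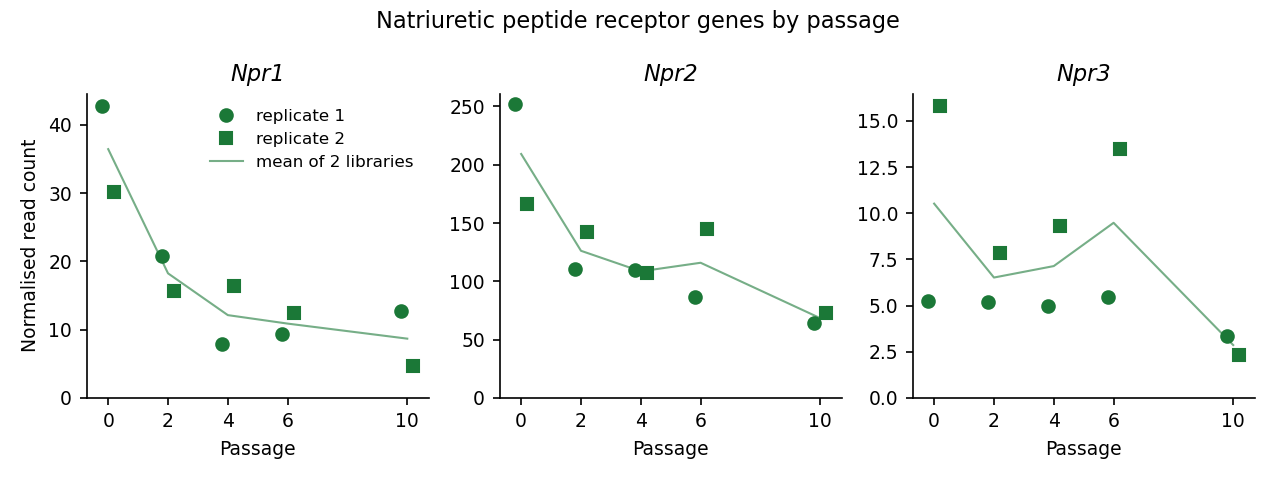
Normalised read counts of Npr1, Npr2 and Npr3 by passage on linear axes that start at 0, with circles for replicate 1, squares for replicate 2 and a line through the means of the 2 libraries. For Npr1 and Npr2 both P0 libraries lie above every later library, and for Npr3 the P10 libraries are the lowest.

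Other ligands of this kind were low in every library. Nppc, the C-type natriuretic peptide gene, had no read in 7 of the 10 libraries and at most 0.989 normalised reads in the others. Guca2a, for the gut peptide guanylin, had 6.10 and 4.31 normalised reads at P0 and at most 3.12 later, and Guca2b, for uroguanylin, had no read in any library. Ostn, for osteocrin, a peptide that binds the clearance receptor, had 11.3 and 8.62 normalised reads at P0 (13 and 6 reads) and 0 to 4.95 later. No gene of the 4 in this list reached the minimum mean of 10 for the test.

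Few of the enzymes that cut peptide precursors or break peptides down could be tested. Of 9 genes in this list 8 had a row and 4 were tested, and none passed limma's adjusted threshold in any passage against P0, in comparisons that called 4.15% (P2), 9.24% (P4), 21.0% (P6) and 17.0% (P10) of all features, so a count of 0 among 4 genes is near the background. The median log2 difference at P10 was -0.32 over the 4 tested genes and 0.00 over all features. Furin, the protease that cuts the precursor of brain natriuretic peptide, had 268 and 503 normalised reads at P10, against 555 and 470 at P0, which overlap. Pcsk6, another convertase, differed by 0.07, Ece1, an endothelin-converting enzyme, by -0.20, and Ide, the insulin-degrading enzyme, by -0.45 on the log2 scale at P10 (limma, adjusted p of 0.924, 0.793 and 0.0992). Mme, the gene for neprilysin, which degrades natriuretic peptides, had 0 to 3.37 normalised reads per library. Mep1a and Mep1b, for the meprin subunits, and Dpp4, a peptidase, were also under the mean of 10. Corin, the protease that cuts the atrial peptide precursor, was not found by name and was not analysed here.

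Downstream of the receptors, genes that make, bind, degrade or export cyclic GMP were also counted. Of 20 genes in this list 14 were tested, and at P10 against P0 1 rose and 2 fell, with a median log2 difference of -0.24. At P2 1 rose and 1 fell, in a comparison that called 4.15% of all features. At P4 again 1 rose and 1 fell (9.24%), and at P6 1 rose and 2 fell (21.0%, and 17.0% at P10). These shares count both directions. Over all features 10.5% rose and 10.5% fell at P6, and 8.77% rose and 8.25% fell at P10. Whether genes of this list were called more or less often than all features was not tested.

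Pde2a, a phosphodiesterase that cyclic GMP itself stimulates, rose in every later passage. It had 18.3 and 25.9 normalised reads in P0, 111 and 140 in P2, 153 and 172 in P4, 211 and 217 in P6, and 354 and 306 in P10. No 2 passages overlapped, and the order of the values was the order of the passages. The log2 differences from P0 were 2.47, 2.85, 3.24 and 3.86 (SE 0.24), with limma adjusted p of 0.00130, 0.000423, 0.000172 and 8.13e-05, and each call held in all 10 fits without 1 library.

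Pde10a, a phosphodiesterase for both cyclic GMP and cyclic AMP, fell. It had 620 ± 23.7 normalised reads at P10, against 1301 ± 27.9 at P0 (SD, n = 2 each; log2 difference -1.07, SE 0.15; limma, adjusted p = 0.00318), and this call held in all 10 fits without 1 library but not when P0 and P10 alone were fitted (limma, adjusted p = 0.104). At P2, P4 and P6 it fell by 0.70, 0.62 and 0.57 on the log2 scale (limma, adjusted p = 0.0386, 0.0341 and 0.0289), and those calls held in 4, 4 and 3 of the 10 fits without 1 library.

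Rgs2, a brake on receptor signalling that cyclic GMP-dependent kinase acts on, had 28.7 and 29.7 normalised reads at P10, against 88.8 and 63.2 at P0. It fell by 1.33 on the log2 scale (limma, adjusted p = 0.0286), and the call held in 3 of 10 fits without 1 library, with adjusted p up to 0.205, and not when P0 and P10 alone were fitted (adjusted p = 0.155). Abcc5, an exporter of cyclic nucleotides, fell at P6 by 0.73 (limma, adjusted p = 0.0304), a call that held in 3 of 10 such fits, and differed by -0.53 at P10 (adjusted p = 0.0954).

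The remaining 10 tested genes of this list were not called at any passage against P0. Prkg1, the gene for cyclic GMP-dependent protein kinase, had 252 and 118 normalised reads at P10, against 155 and 180 at P0, a log2 difference of 0.05. Its kinase substrates Vasp and Irag1 differed by 0.06 and -1.14. Among phosphodiesterases, Pde5a differed by 0.23, Pde9a by 0.60, Pde3a by -0.29 and Pde3b by -0.87, and among cyclases Gucy1a2 differed by 0.34 and Gucy2c by -0.61. Abcc4, another exporter, differed by -0.18. Prkg2, Gucy1a1, Gucy1b1, Rgs4, Cnga1 and Cnga3 were under the mean of 10.

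**Figure D4:**
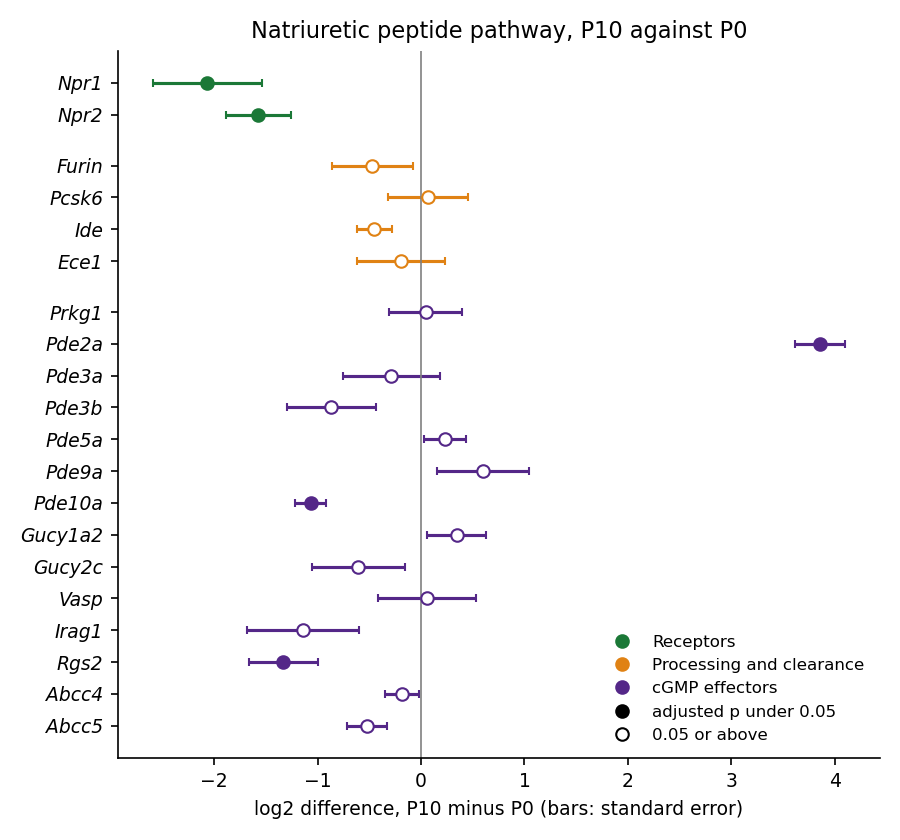
Log2 differences of mean log2(normalised value + 1), P10 minus P0, for the tested receptor genes (green), the processing and clearance genes (orange) and the genes that bind, make, degrade or export cyclic GMP (purple), with bars for the standard error and filled points for a limma adjusted p under 0.05. Pde2a stands at 3.86, far above the others, and Npr1 and Npr2 are at -2.07 and -1.57.

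Transcription factors known to act on the Nppa and Nppb promoters, mostly in heart cells, were also counted. Of 36 genes 32 had a row and 21 were tested. At P2 none rose and 3 fell, at P4 1 rose and 6 fell, at P6 4 rose and 7 fell, and at P10 1 rose and 7 fell. Over all features 4.15%, 9.24%, 21.0% and 17.0% were called in these comparisons. Gata4, the cardiac factor that binds both promoters, had 292 and 208 normalised reads at P10, against 314 and 249 at P0, a difference that did not pass (log2 difference -0.18; limma, adjusted p = 0.627).

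Fos, part of the AP-1 factor, had 19.4 and 48.4 normalised reads at P10, against 1130 and 1082 at P0, and fell by 5.12 on the log2 scale (SE 0.39; limma, adjusted p = 0.000232). Nfatc1, a factor that calcineurin turns on, had 153 and 190 normalised reads at P10, against 546 and 451 at P0, and fell by 1.54 (SE 0.20; limma, adjusted p = 0.00243). Both calls held in all 10 fits without 1 library. Tead1, a partner of YAP, fell by 1.76 to 1089 ± 196 normalised reads at P10, against 3669 ± 383 at P0 (SD, n = 2 each; limma, adjusted p = 0.00717), and Hif1a, the oxygen-sensitive factor, rose by 1.84 (limma, adjusted p = 0.00579). Without P0 replicate 1 the limma adjusted p went above 0.05 for both (up to 0.0762 for Tead1 and 0.0554 for Hif1a), and for Hif1a also without P0 replicate 2. When P0 and P10 alone were fitted, limma called only 1 gene of this promoter list at P10, so most of the calls for Fos, Nfatc1, Tead1 and Hif1a did not hold there.

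Nppa and Nppb lie next to each other, with no gene between them in the RefSeq gene table of the assembly CriGri-PICRH-1.0. Of the 6 genes on each side, 11 had a row and 9 were tested. None of them was called at P2 or P4, 1 rose at P6 and at P10 1 rose and 1 fell, with a median log2 difference of -0.06 at P10. These counts lie near the share called over all features, 21.0% at P6 and 17.0% at P10. Miip, 4 places from Nppb, had 318 and 293 normalised reads at P10, against 137 and 118 at P0 (log2 difference 1.26, SE 0.18; limma, adjusted p = 0.00373). Clcn6, which codes for an endosomal chloride transporter and is the next gene on the Nppa side, had 232 and 263 at P10, against 536 and 358 at P0 (log2 difference -0.82, SE 0.22; limma, adjusted p = 0.0348). The call for Miip held in all 10 fits without 1 library and that for Clcn6 in 4, with adjusted p up to 0.248, and neither held when P0 and P10 alone were fitted (limma, adjusted p of 0.106 for Miip and 0.219 for Clcn6). The other 7 differed by -0.24 for Mfn2 to 0.61 for Kiaa2013, and these include Agtrap and Plod1 at -0.06 and -0.15.

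**Figure D5:**
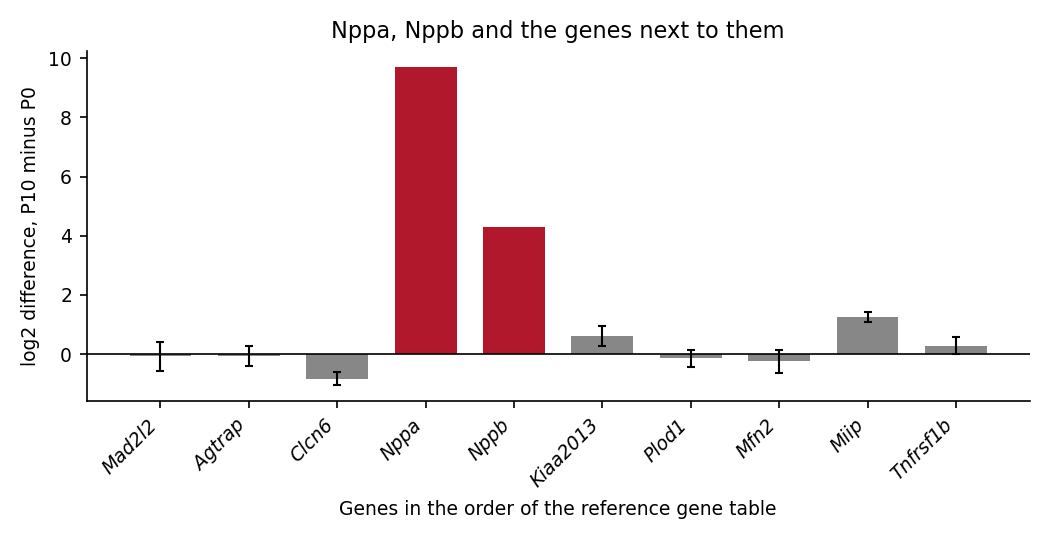
Log2 differences, P10 minus P0, for Nppa and Nppb (red) and for 8 of the 9 tested genes next to them (grey, with bars for the standard error), in the order of the reference gene table. Nppa at 9.71 and Nppb at 4.30 stand among neighbours that lie between -0.82 and 1.26.

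Over the 10 libraries, the genes most like Nppa in their log2 values were Adamtsl2 (Pearson r = 0.991), Manf (0.982), St3gal5 (0.978), Myo10 (0.977) and Heatr7b2 (0.971). Adamtsl2, which encodes a secreted protein of the extracellular matrix, had 0.871 and 0 normalised reads in P0, 7.29 and 14.5 in P2, 130 and 107 in P4, 202 and 158 in P6, and 92.0 and 170 in P10. Its lower libraries at P6 and P10 were the same as those of Nppa. For Nppb they were Hmox1 (0.985), Csrp1 (0.983), Gmfg (0.980), Odc1 (0.980) and Sirt2 (0.978). Hmox1, the heme oxygenase gene, had 406 and 381 normalised reads in P0, 1578 and 1413 in P2, 2233 and 2760 in P4, 2580 and 1355 in P6, and 1834 and 2578 in P10. For Npr2 they were Dvl3 (0.965), Evl (0.962), Tom1l2 (0.957), Tnrc6c (0.957) and Creb3l1 (0.955). These are the highest of 9272 features with a mean of at least 50, of which 135 had an r of at least 0.9 with Nppa, 140 with Nppb and 57 with Npr2. The points share libraries, their depth and their scaling, so the likeness is a description.

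Because Nppa and Nppb are best known from heart muscle, markers of that cell type were read in the same libraries. Of 16 cardiomyocyte genes 13 had a row and 4 reached a mean of 10, and the summed level was 163 to 198 normalised reads at P0, 130 to 155 at P2, 134 to 143 at P4, 128 to 233 at P6 and 108 to 162 at P10. Ryr2 had 26.1 to 78.6 normalised reads per library, Ttn 16.4 to 75.3 and Tnnt2 12.9 to 33.1, and none of them was called at any passage against P0. Pln, the phospholamban gene, was at 0 in every library, Myl7, of the atrial myosin light chain, had a single value above 0 of 1.12, and Bmp10 had at most 0.989. Myl2, the ventricular myosin light chain, had 0 to 2.97 normalised reads up to P4, 4.70 and 11.2 in P6, and 19.4 and 3.12 in P10, and Myh6, the alpha myosin heavy chain, had 0 to 4.95 up to P4, 6.26 and 19.1 in P6, and 11.8 and 0.780 in P10. Both were higher in P6 replicate 2 and P10 replicate 1 than in their duplicates, where Nppa and Nppb were lower. This was not particular to heart genes, since the leukocyte marker Laptm5 and the granulosa marker Fshr did the same, and the granulosa marker Amhr2 the opposite. Actc1, cardiac actin, had 18.6 and 26.5 normalised reads at P10, against 51.4 and 60.4 at P0 (log2 difference -1.29; limma, adjusted p = 0.0458), and this call held in 1 of 10 fits without 1 library. Limma also called it lower at P2, P4 and P6, by -2.24, -2.21 and -1.22. It had 8.33 and 14.5 normalised reads in P2, 10.9 and 11.7 in P4, and 24.3 and 22.5 in P6. Over all features 2.07% fell at P2, 5.52% at P4, 10.5% at P6 and 8.25% at P10. Of 6 leukocyte markers with a row 4 were tested and 1, Itgax, was called higher at P10 (log2 difference 4.04), where 8.77% of all features rose. Itgax had 0 and 1.44 normalised reads at P0 (0 reads and 1 read), against 18.6 and 32.8 at P10. It passed the filter on low values only through its later passages, so its calls against P0 are given as a description. Itgax alone rose at P2, and Itgax and Cd68 both rose at P4 and P6, where 2.08%, 3.72% and 10.5% of all features rose. The 6 summed to 48.8 to 61.8 normalised reads at P0, 101.02 to 107 at P2, 177 to 207 at P4, 149 to 207 at P6 and 105 to 166 at P10, with Cd14 at 0 in all libraries except for 0.780 in P10 replicate 2. The part of these markers in the peptide values was not tested. The 5 endothelial markers summed to 86.2 to 92.3 at P0, 99.5 to 106 at P2, 82.8 to 91.0 at P4, 83.0 to 156 at P6 and 65.6 to 70.0 at P10.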

How the data were processed

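The deposited values are a signal, read counts that the authors scaled between libraries with DESeq (no version given), according to the submitters' processing notes. Per the labels' protocols, TRIzol was used for extraction, a Ribo-Zero kit against ribosomal RNA and a TruSeq stranded kit for the libraries. Not given in the sources used here are aligner, genome build, annotation, and the counting tool with its use of strand, so reads of overlapping or antisense genes may be shared. Values within a column are whole multiples of 1 step, within 0.01 reads, and dividing by the step gave whole reads (100% of values in every library). In P4 replicate 1 that step is almost 1, so a check of units could not tell scaled reads from rounded values, and its reads were recovered in the same way. Of 20050 features named by number, 16386 were matched to a symbol in the RefSeq table of CriGri-PICRH-1.0, an assembly that need not be the one used upstream, so no coordinates or sequences are given.

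Groups came from the labels. Duplicates differed beyond sampling noise at every passage (chi-square of reads over its degrees of freedom 6.36 to 250.4) and were kept as 2 libraries. Differences were tested with limma 3.58.1 (R 4.3.3), with a trended prior on log2(value + 1) for features with a mean of at least 10, with all 10 libraries in 1 fit, 1 mean per passage, two-sided tests and Benjamini-Hochberg adjustment at 0.05 within a comparison. Log2 differences are on that scale and understate changes of low genes. Alternatives were other pseudocounts, filters and scalings, edgeR 4.0.16 and DESeq2 1.42.0 on recovered reads, fits of the 2 passages compared, a replicate block and leaving out each library. A fit without both P6 replicate 2 and P10 replicate 1 was chosen after seeing the data. Steps were tested on simulated data.

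The members and the 12 gene lists (157 of 173 entries matched) were chosen with earlier results of these data known. Text names the members, all genes with a row in the processing and cyclic GMP lists, up to 4 genes of each other list with the smallest p among those called at P10, the 6 neighbours on each side (1 of which is not reported here) and the 5 most similar features. Gata4, Dym, Ostn, Guca2a and other markers or ligands outside this rule were chosen after their values were seen.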

Additional observations from a re-analysis of the deposited data

How the results depend on the processing

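Nppa and Nppb were chosen for standing far above P0, so the alternatives could not put the direction of these differences to a check and bear only on their size. The difference of Nppb at P4 was 5.42 under equal totals, against 5.49 in the main fit. Npr1 and Npr2 kept the direction of their differences from P0 at P10 under every alternative run. Called at P4 against P2 were Nppa in DESeq2 (3.95), in the fit of both passages alone (3.93) and without P6 replicate 2 and P10 replicate 1 (3.93), and Nppb in the last of these and the fit of both passages alone (1.61 in each). Without those libraries, where the lone P6 library is assumed to vary like the other passages, Nppa was also called at P6 against P4 (1.68) and Nppb at P6 against P4 (-0.41) and P2 (1.20). With a replicate block Nppa at P6 against P2 (5.04, adjusted p = 0.0655 in limma) and Npr1 at P10 (-2.07, limma, adjusted p = 0.0535) were not called. Npr1 at P10 was also not called with no filter (-2.07, limma, adjusted p = 0.0522) and with P0 and P10 alone (-2.07, limma, adjusted p = 0.155), nor was Npr2 with P0 and P10 alone (-1.57, limma, adjusted p = 0.106). Leaving out 1 library gave 4.47 to 5.61 for Nppa at P6 against P2, -1.76 to -0.41 for Nppb at P6 against P4, -2.70 to -1.43 for Npr1 and -1.87 to -1.28 for Npr2 at P10. Differences that were not called changed sign: Nppb at P6 against P2 (-0.15 to 1.20 without 1 library), Npr1 at P6 against P4 (-0.56 to 0.40, and 0.18 under equal totals), Npr1 at P10 against P6 (-1.05 to 0.21), and Npr2 at P6 against P4 (-0.32 to 0.41, and -0.32 without P6 replicate 2 and P10 replicate 1).

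The number of features called depended on the libraries fitted. For P2 against P0 it was 561 in the main test, 261 with a replicate block, 366 under equal totals, 1061 in DESeq2, 3940 with these passages alone, 4616 without P6 replicate 2 and P10 replicate 1 and 61 to 1578 without 1 library. For P4 against P0 it was 1250, then 767 with the block, 5677 with these passages alone, 5829 without both libraries and 143 to 2783 without 1. For P6 against P0 it was 2841, 6595 without both libraries and 412 to 5441 without 1. For P10 against P0 it was 2301, 49 with these passages alone, 6256 without both libraries and 315 to 4738 without 1. For P6 against P2 it was 51, then 27 with no filter, 3 with the block, 1008 in DESeq2, 334 with these passages alone, 4118 without both libraries and 0 to 3467 without 1. At P10, processing and clearance had 0 called genes, 1 without both libraries and 0 to 1 without 1. The cyclic GMP list had 3, then 1 with P0 and P10 alone, 7 without both and 2 to 5 without 1. The promoter regulators had 8, then 1, 14 and 2 to 12 in the same settings. The neighbours had 2, then 1 with the block, 1 under equal totals, 0 with P0 and P10 alone, 6 without both and 1 to 3 without 1. The cause was not tested.

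Replicate numbers did not pair the libraries, since the correlations of same-numbered deviations from the passage means ran from -0.67 (P6 with P10) to 0.23 (P2 with P10). With 2 libraries per passage, -0.67 means that P6 replicate 2 deviated like P10 replicate 1, and P6 replicate 1 like P10 replicate 2. Deviations were thus shared between these passages, and the replicate block, which follows the numbers, does not take this up. A minimum mean of 50 left Npr1 out of the test. With 2 libraries per passage, the low reads of Nppa at P0 and of Npr1 and Npr3 limit the precision of their differences.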

Other observations

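Other genes of the fetal heart programme, in which Nppa and Nppb are usually counted, were called in both directions. Of 26 such genes 24 had a row and 16 were tested, and at P10 against P0 2 rose and 3 fell, with a median log2 difference of -0.28 (over all features, 8.77% rose and 8.25% fell). Tnni1, the slow skeletal troponin I that the fetal heart uses, had 40.5 and 43.7 normalised reads at P10, against 9.58 and 11.5 at P0 (log2 difference 1.91, SE 0.30; limma, adjusted p = 0.00520). Without P0 replicate 1 its limma adjusted p was 0.0589. Myl9, a regulatory light chain of smooth muscle myosin, fell to 14.6 ± 1.49 normalised reads at P10, against 60.0 ± 1.45 at P0 (SD, n = 2 each; log2 difference -1.97; limma, adjusted p = 0.00921), and without P0 replicate 1 or 2 the limma adjusted p went up to 0.0816. Timp1, an inhibitor of matrix proteases, rose by 0.68 and Fhl2, a LIM domain cofactor, fell by 0.69 on the log2 scale at P10 (limma, adjusted p = 0.0310 and 0.0427), and these calls held in 4 and 3 of 10 fits without 1 library.

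Of 33 genes for other vasoactive peptides and their receptors, 30 had a row and 9 were tested, and at P10 against P0 2 rose and none fell, against 8.77% and 8.25% of all features. Agt, the angiotensinogen gene, had 70.0 and 124 normalised reads at P10 and no read in either P0 library, and it was highest at P4, with 1448 and 1452. Rxfp1, the relaxin receptor gene, had 275 and 169 normalised reads at P10, against 8.71 and 11.5 at P0 (10 and 8 reads), a log2 difference of 4.30. These 2 are the genes that rose. The list was chosen with earlier results of these data known, and Agt passed the filter on low values only through its later passages. Their rise is therefore given as a description. Agtr1, for an angiotensin receptor, Ramp2 and Bdkrb1 were at 0 in all libraries.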
